A study of Homo sapiens with 6 samples.

Results

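The genes described here are the ERBB receptor tyrosine kinases (EGFR, ERBB2, ERBB3 and ERBB4) and the neuregulins (NRG1, NRG2, NRG3 and NRG4). The 8 genes were taken by name from the 20163 protein-coding genes of the annotation, and every 6mA-IP-seq peak that overlapped a gene body or the 5 kb on either side was assigned to the gene. Their peaks merged into 57 regions, of 72537 in the whole data set. The choice used no measured value, but it was made with earlier results of these data known. N6-methyladenine (6mA) is adenine that carries a methyl group on its amino nitrogen, and in 6mA-IP-seq denatured DNA fragments are pulled down with a 6mA antibody and sequenced. MDA-MB-453, a long-established line from a human breast cancer, was transfected for 48 hours with 10 nM of a scramble siRNA (Control) or of an siRNA against N6AMT1, a candidate 6mA methyltransferase (si-N6AMT1), with 2 immunoprecipitated libraries a group. Both groups therefore received an siRNA and the transfection reagent, and the knockdown was transient. The depth of knockdown, RNA levels and the 2 input libraries were not analysed here, so neither the cell type nor the target could be checked from these values. The study's methods call the libraries biological replicates, and the labels number them. Neither says whether they came from separate cultures, so any p-value measures the spread between these libraries.

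ERBB proteins are cell-surface receptors that pair on binding a ligand and phosphorylate each other, which turns on the MAP kinase and PI3 kinase pathways. EGFR binds the EGF family of ligands, and ERBB3 and ERBB4 bind neuregulins. ERBB2 has no known ligand and acts as the preferred partner of the others, and ERBB3 has a weak kinase and signals mainly through its partner. In breast epithelium these receptors direct growth and differentiation, and ERBB2 is the target of antibody therapy in breast cancer.

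The peak lists held 30451 and 33410 peaks in the controls against 38847 and 40844 in si-N6AMT1. The genome-wide background, the lowest local background in a list, was 1.05 and 1.36 fragments in the controls against 1.41 and 1.53 in si-N6AMT1. The si-N6AMT1 lists were therefore both longer and the deeper ones, and depth and treatment cannot be told apart. A median peak had a pileup, the number of overlapping fragments at its summit, of 17 to 19. A region without a peak in a list is one that was not called at this depth, and the lists hold no signal for it.

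The sequences at the summits of regions are shown first, with windows that hold a simple repeat and windows that hold none. Each is the 100 bp of GRCh37 centred on the summit of highest fold enrichment, which is the pileup over the local background with 1 added to each. Calls refer to the whole region, and the summits of other libraries can lie outside the window. The summits of a region lay up to 1409 bp apart in EGFR intron 27, 895 bp in EGFR intron 15 and 279 bp in the first NRG4 region. The first 3 EGFR windows are from regions called in all 4 libraries. Capitals in them mark the pair CA, or its complement TG, repeated at least 3 times in either frame. The EGFR intron 15 window and the first NRG3 window are also from regions called in all 4 libraries. Their capitals mark the triplet CCA, or its complement TGG, repeated at least 3 times in any frame. The first NRG2 window is from a region called in all 4 libraries. The next 2 NRG3 windows are from regions called in both si-N6AMT1 libraries and in neither control. In these windows, capitals mark runs of at least 20 purines (A or G) or at least 20 pyrimidines (C or T). The first NRG4 window is from a region called in all 4 libraries, and the ERBB4 window is the one of highest fold in that gene. In both, capitals mark at least 6 A or 6 T in a row. The last 3 windows hold none of these features and have no capitals. They are a second NRG3 region called in all 4 libraries and an NRG2 and an NRG4 region called in both si-N6AMT1 libraries alone.
EGFR intron 27 (chr7:55272369-55272468, + strand): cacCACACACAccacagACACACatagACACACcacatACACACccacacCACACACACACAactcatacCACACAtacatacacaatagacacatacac
EGFR intron 1, downstream region (chr7:55163519-55163618, + strand): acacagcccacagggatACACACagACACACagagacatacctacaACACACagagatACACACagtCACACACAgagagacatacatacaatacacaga
EGFR intron 1, upstream region (chr7:55135665-55135764, + strand): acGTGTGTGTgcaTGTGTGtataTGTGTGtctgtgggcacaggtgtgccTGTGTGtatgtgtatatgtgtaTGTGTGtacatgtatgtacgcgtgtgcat
EGFR intron 15 (chr7:55234327-55234426, + strand): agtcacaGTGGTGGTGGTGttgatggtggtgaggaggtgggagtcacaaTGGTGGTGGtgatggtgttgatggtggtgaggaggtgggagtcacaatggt
NRG3 intron 2, triplet repeat (chr10:84220953-84221052, + strand): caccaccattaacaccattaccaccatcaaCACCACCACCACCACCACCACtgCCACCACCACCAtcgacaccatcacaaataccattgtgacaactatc
NRG2 intron 1 (chr5:139318495-139318594, + strand): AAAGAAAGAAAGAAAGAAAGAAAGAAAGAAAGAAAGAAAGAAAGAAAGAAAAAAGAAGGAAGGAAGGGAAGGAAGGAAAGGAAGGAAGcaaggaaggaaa
NRG3 intron 1 (chr10:83912564-83912663, + strand): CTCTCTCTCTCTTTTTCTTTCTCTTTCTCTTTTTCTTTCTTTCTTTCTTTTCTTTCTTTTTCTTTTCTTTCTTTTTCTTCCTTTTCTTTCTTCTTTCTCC
NRG3 intron 3 (chr10:84499854-84499953, + strand): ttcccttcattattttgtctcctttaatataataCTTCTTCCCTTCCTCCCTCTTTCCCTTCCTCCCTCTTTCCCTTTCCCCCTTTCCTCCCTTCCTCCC
NRG4 intron 5 of a longer isoform (chr15:76320588-76320687, + strand): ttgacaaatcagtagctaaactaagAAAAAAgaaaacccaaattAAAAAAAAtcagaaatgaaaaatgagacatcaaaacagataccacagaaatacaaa
ERBB4 intron 3 (chr2:212670668-212670767, + strand): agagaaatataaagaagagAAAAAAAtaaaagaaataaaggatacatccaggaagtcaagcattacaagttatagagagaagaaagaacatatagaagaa
NRG3 intron 1, no repeat marked (chr10:83929432-83929531, + strand): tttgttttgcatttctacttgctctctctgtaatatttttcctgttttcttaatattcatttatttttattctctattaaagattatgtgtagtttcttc
NRG2 intron 1, no repeat marked (chr5:139397320-139397419, + strand): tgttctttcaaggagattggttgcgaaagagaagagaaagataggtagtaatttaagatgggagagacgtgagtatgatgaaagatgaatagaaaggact
NRG4 intron 5 of a longer isoform, no repeat marked (chr15:76318947-76319046, + strand): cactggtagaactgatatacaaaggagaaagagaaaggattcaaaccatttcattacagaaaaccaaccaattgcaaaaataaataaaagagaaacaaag

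Counting both strands, at least 3 CA-type units in a row were present in 21.1% of the 57 summit windows at the ERBB receptors and neuregulins and in 14.2% of the 72532 summit windows of nuclear regions. The CCA-type triplet repeat was present in 3.51% of the former (2 windows, those of EGFR intron 15 and NRG3 intron 2) and 1.06% of the latter. A purine or pyrimidine run of at least 20 was present in 31.6% and 31.9%, and a run of at least 6 A or of at least 6 T in 47.4% and 52.1%. These features can overlap, since a long run of A is also a run of purines. The antisense strand of a CA repeat reads TG, so the upstream EGFR intron 1 window, printed as TG, holds the same kind of repeat as the other 2. A repeat at a summit is a description of the sequence and not a mapped modified base.

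CA-rich windows were found at EGFR, NRG3 and ERBB4. At least 8 CA-type units in a row were present in 2 windows of each of these genes, all from regions called in 1 library. They made up 10.5% of the 57 windows, against 4.21% over all nuclear regions. Of the 9 regions called in all 4 libraries 0 had such a run, against 2.80% of all such regions. CA and AC steps, or TG and GT steps on the other strand, made up 68.7%, 53.5% and 55.6% of the dinucleotide steps in the first 3 windows above. The intron 15 window had 41.4%. Over all regions called in all 4 libraries the median was 15.2%, and 98.3%, 90.3% and 91.5% of those regions lay below the first 3 EGFR windows. An NRG3 region called in 2 libraries (chr10:84376735-84377248) had 75.8%, the highest of the 57 regions, and one called in 1 library (chr10:84712025-84712437) had 52.5%. An ERBB4 region called in 1 library (chr2:212277866-212278231) had 45.5%, with 19 CA-type units in a row. Of the 8 EGFR regions, 4 reached 50% of steps, as did 2 of the 20 NRG3 regions and none of the 29 other regions of these genes, against 3.85% of all nuclear regions. The measure was chosen after the EGFR sequences were seen. No EGFR window held a run of 6 A or of 6 T, whereas 8 of 12 at NRG1, 4 of 6 at ERBB4, 3 of 5 at NRG2, 10 of 20 at NRG3 and 2 of 6 at NRG4 did.

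Peaks were counted per gene to ask where along the family the antibody signal was called and whether this differed after si-N6AMT1. Of the 8 genes, 6 had a peak in at least 1 library, and ERBB2 and ERBB3 had none (54.2% of protein-coding genes had a peak). The 8 genes together held 23 and 24 peaks in the controls against 28 and 32 in si-N6AMT1. The si-N6AMT1 values were 1.28 times the control values on average, and the same ratio over the whole lists was 1.25. The difference of 6.5 peaks gave p = 0.333 (exact permutation test, two-sided, 6 assignments). This is the smallest p that 2 against 2 libraries allow, so no comparison of counts here could pass 0.05. With the lists cut to equal length the difference was 1 peak (exact permutation p = 0.667).

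The receptors and the neuregulins had counts of opposite order. The receptor genes held 8 and 11 peaks in the controls against 5 and 5 in si-N6AMT1. The neuregulin genes held 15 and 13 in the controls against 23 and 27 in si-N6AMT1. The groups did not overlap in either case, with si-N6AMT1 at 0.526 times control for the receptors and 1.79 times for the neuregulins. With each list cut to its 30451 highest-ranked peaks, the receptors had 8 and 11 against 5 and 4 peaks and the neuregulins 15 and 13 against 19 and 21. Gene by gene, EGFR and ERBB4 had more peaks in each control than in each si-N6AMT1 library, as did 1.64% of protein-coding genes. NRG1, NRG2, NRG3 and NRG4 had more in each si-N6AMT1 library, as did 7.05% of protein-coding genes. Among the 3788 protein-coding genes with 6 or more peaks summed over the libraries, which all 6 of these genes reached, the shares were 3.99% and 20.7%. Among the 324 protein-coding genes of 500 kb or more, which include ERBB4, NRG1 and NRG3, they were 2.78% and 26.9%. With equal lists, NRG1 had 4 and 2 against 5 and 3 peaks and NRG3 had 8 and 7 against 8 and 10, so these 2 genes no longer separated the groups. The difference between the receptors and the neuregulins was noticed in these counts and was not tested.

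Per length the genes differed widely. Summed over all 8 gene windows there were 0.554 and 0.578 peaks per 100 kb in the controls against 0.674 and 0.770 in si-N6AMT1, against 1.01, 1.09, 1.30 and 1.34 over all protein-coding genes. The ratio of the 8 genes to all genes was 0.542 ± 0.0250 (SD over the 4 libraries). The 324 protein-coding genes of 500 kb or more had a mean of 1.08 peaks per 100 kb and all protein-coding genes a mean of 1.19. ERBB4, NRG1 and NRG3 each exceed 1 Mb and made up most of the summed window, so the pooled density is largely theirs. Counted by gene the order against all protein-coding genes was the reverse, with a median density of 0.574 peaks per 100 kb over the 8 genes and 0.375 over all. Of all protein-coding genes, 45.8% had no peak, which lowers that median. Genes of 500 kb or more had a median of 0.812, above that of the 8 genes. EGFR, NRG4 and NRG2, at 2.84, 2.62 and 1.33, lay above the mean of 1.19.

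**Figure D1:**
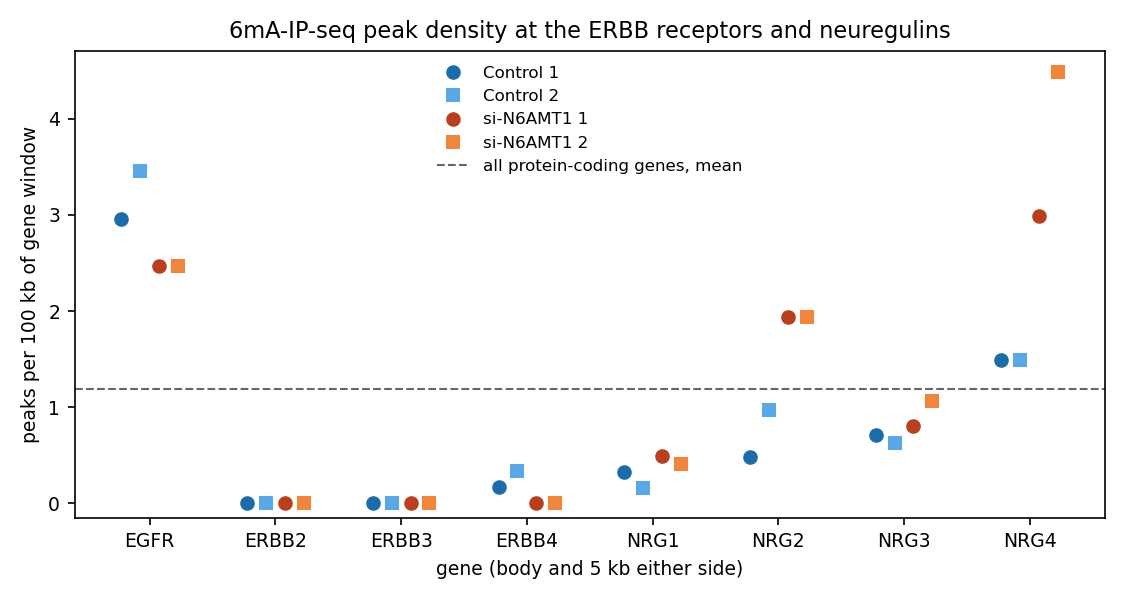
Peaks per 100 kb of gene window (y axis) for each of the 8 genes (x axis), with 1 point for each library and a dashed line at the mean of all protein-coding genes, 1.19. EGFR lies above the line in every library, ERBB2 and ERBB3 are at 0, ERBB4, NRG1 and NRG3 lie below it in every library, and NRG2 crosses it between control and si-N6AMT1.

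Among the receptors, EGFR (chr7:55086710-55279321, + strand, hg19) had the highest density. It held 6 and 7 peaks in the controls against 5 and 5 in si-N6AMT1, or 2.96, 3.45, 2.47 and 2.47 per 100 kb. Its mean of 2.84 exceeded that of 87.9% of protein-coding genes. The surroundings were similarly dense, with 3.15 peaks per 100 kb over the 1 Mb on either side. The peaks formed 8 regions, of which 4 were called in all 4 libraries, 1 in 3 libraries and 3 in 1 library. Of these regions, 5 lay in intron 1, and 1 each in introns 15, 22 and 27 of the 27 introns of the canonical transcript.

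ERBB2 (chr17:37844167-37886679, + strand) and ERBB3 (chr12:56470583-56497289, + strand) held no peak in any library. They are the shortest of the 8 genes, at 42.5 kb and 26.7 kb, and at the mean density of protein-coding genes a library would hold 0.623 and 0.435 peaks in their windows. Of the 4866 protein-coding genes of 20 to 50 kb, 43.9% had no peak in any library. An absence of peaks in genes of this length was therefore common, and these lists do not show that the 2 genes lack the signal. The nearest regions lay 18.8 kb and 66.8 kb from the ends of the ERBB2 gene and 25.6 kb and 32.4 kb from those of the ERBB3 gene. The 1 Mb on either side held 1.33 peaks per 100 kb at ERBB2 and 1.52 at ERBB3. Both receptors remained without a peak with windows of 10 kb on either side.

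ERBB4 (chr2:212240442-213403565, − strand), a neuregulin receptor, had few peaks for its 1163 kb. It held 2 and 4 peaks in the controls against 0 and 0 in si-N6AMT1, where 13.9 would be held at the mean density of protein-coding genes. Its mean density of 0.128 peaks per 100 kb was above that of 16 of the 324 genes of 500 kb or more. The 6 control peaks lay at 6 different places, each called in 1 library, and no region was shared by the 2 control libraries. Their pileups were 13 to 19 fragments and their fold enrichments 6.10 to 9.49. All pileups but the highest lay below the median of their control library, which was 17 fragments in the first and 18 in the second. Of the 324 long genes, 9 had no peak in either si-N6AMT1 library, among them 4 with none in any library. The flanking 1 Mb on either side was also sparse, at 0.377 peaks per 100 kb, with 5 and 10 peaks in the controls against 9 and 6 in si-N6AMT1. Its surroundings thus had peaks in all 4 libraries. The difference at ERBB4 gave an exact permutation p of 0.333. The peaks fell in introns 1, 2, 3, 20 and 25 of 27, with 475 kb free of any peak in the 5′ part of the gene.

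NRG1 (chr8:31496738-32713184, + strand) encodes a ligand of ERBB3 and ERBB4 and has several promoters. It held 4 and 2 peaks in the controls against 6 and 5 in si-N6AMT1, or 0.347 per 100 kb on average. Its 12 regions were mostly seen once, with 10 in 1 library, 1 in 3 and 1 in all 4. All of them lay in intron 1 of a long isoform that starts near the 5′ end of the gene. The 226-kb span of the canonical transcript had no peak, and the 3′ 320 kb of the window was the longest stretch without one. The region called in all libraries (chr8:32124313-32124875) had a fold of 10.1 and 8.66 in the controls against 12.1 and 6.54 in si-N6AMT1. These values overlapped between the groups.

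NRG2 (chr5:139226364-139422884, − strand), another ligand of ERBB3 and ERBB4, held 1 and 2 peaks in the controls against 4 and 4 in si-N6AMT1. The densities were 0.484, 0.968, 1.94 and 1.94 peaks per 100 kb. All 5 regions lay in intron 1 of the 9 introns of the canonical transcript. The region in all 4 libraries (chr5:139318314-139318752) lay on the GAAA and GGAA repeat printed above and had a fold of 10.2 and 8.41 in the controls against 10.5 and 7.21 in si-N6AMT1. The region called in both si-N6AMT1 libraries and in no control (chr5:139396758-139397524) had folds of 4.54 and 5.60. A region called in the second control and both si-N6AMT1 libraries (chr5:139315399-139315897) had folds of 7.12, 6.38 and 6.49. The 2 others were each called in 1 si-N6AMT1 library, with a fold of 7.70 (chr5:139301473-139301873) and 4.93 (chr5:139393361-139393732).

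NRG3 (chr10:83634950-84746935, + strand), a neural ligand of ERBB4, held the largest number of regions of the 8 genes. It had 8 and 7 peaks in the controls against 9 and 12 in si-N6AMT1, or 0.713, 0.624, 0.802 and 1.07 per 100 kb. Of its 20 regions, 10 were in 1 library, 6 in 2, 2 in 3 and 2 in all 4. They lay in intron 1 (7 regions), intron 2 (9), intron 3 (3) and intron 5 (1) of the 8 introns of the canonical transcript. The first 178 kb of the window was free of peaks. Both regions called only in si-N6AMT1 lay on pyrimidine tracts printed above. The one at chr10:84499634-84500178 had a fold of 10.4 and 10.3 and pileups of 24 and 25, and the one at chr10:83912397-83913230 had a fold of 7.04 and 7.52 and pileups of 16 and 18. The former lay 1.57 kb from the nearest annotated start of an NRG3 transcript, the shortest such distance among the 57 regions.

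NRG4 (chr15:76228310-76352136, − strand), a ligand of ERBB4, showed the highest single density of the neuregulins. It held 2 and 2 peaks in the controls against 4 and 6 in si-N6AMT1, or 1.49, 1.49, 2.99 and 4.48 per 100 kb. Its mean of 2.62 exceeded that of 86.3% of protein-coding genes, whereas the 1 Mb on either side held 0.791. Of its 6 regions, 5 lay upstream of the canonical transcript, in introns 4 and 5 of a longer isoform. The region in all libraries (chr15:76320320-76321451) had a fold of 7.32 and 6.77 in the controls against 8.73 and 6.33 in si-N6AMT1. Regions in both si-N6AMT1 libraries alone were chr15:76266275-76266903, with folds of 6.03 and 6.13, and chr15:76318893-76319546, with folds of 5.38 and 5.54.

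**Figure D2:**
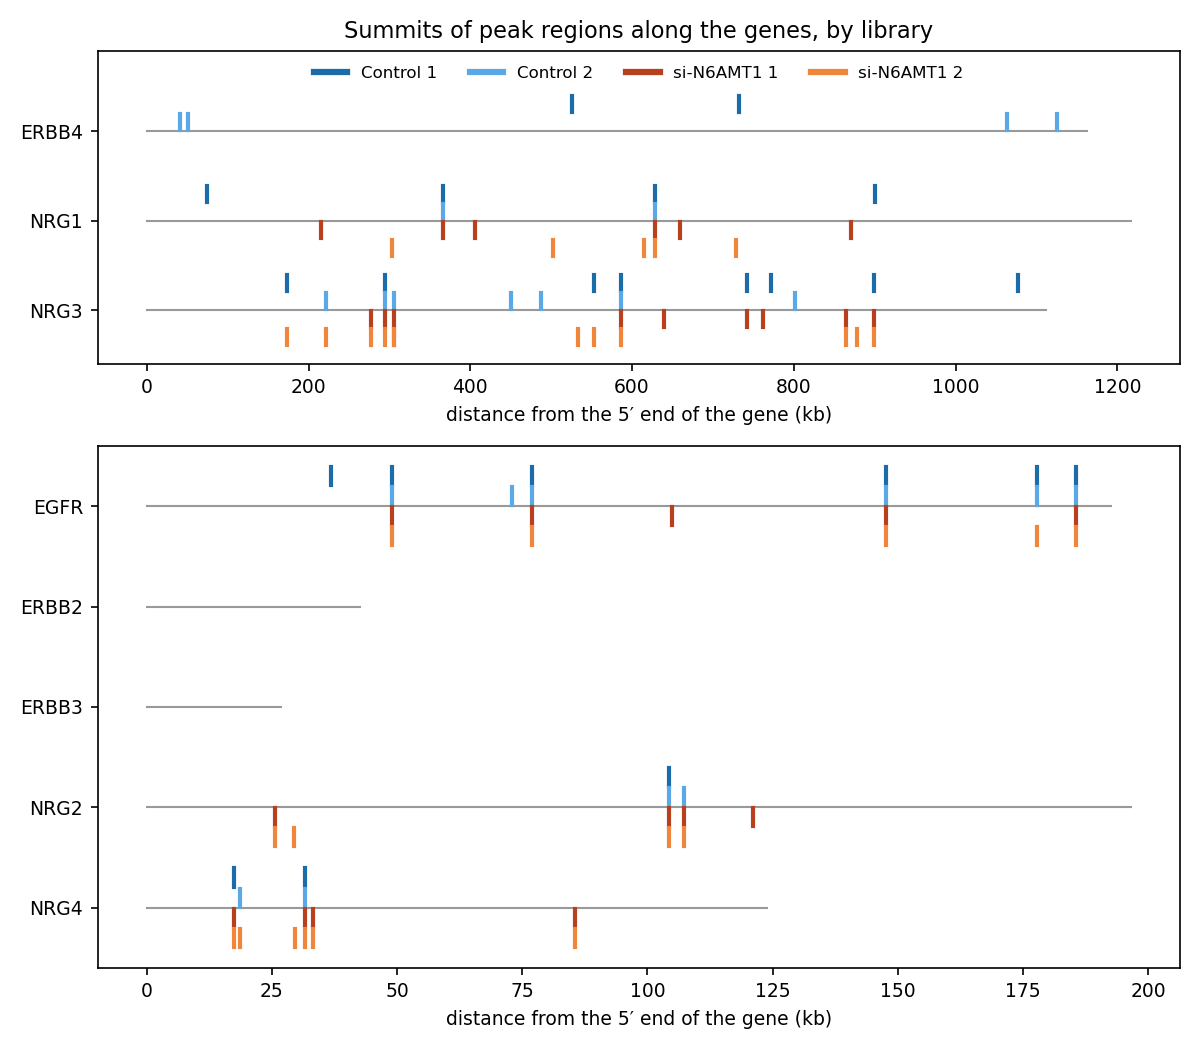
Summits of the 57 regions against the distance from the 5′ end of the gene in kb (x axis), for the 3 genes over 1 Mb (upper panel) and the 5 others (lower panel). Each tick is a region called in 1 library, with 1 row of ticks for each library in the order of the key, and aligned ticks are shared regions. ERBB4 has ticks of the control libraries alone, NRG1 has none in its 3′ end, and 4 EGFR regions carry ticks of all libraries.

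All 57 summits lay in introns, with 0 within 1 kb of a transcription start, 0 in an exon and 0 in the 5 kb flanks. Introns made up 95.5% of the sequence of the 8 windows, promoters 1.72%, exons 1.56% and flanks 1.19%. Over the windows of all protein-coding genes, 88.6% of 34710 regions had their summit in an intron, for 83.1% of the sequence, 3.25% in a promoter and 1.02% in an exon.

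Most regions were seen in 1 library. Of the 57, 32 were called once (56.1%, against 49.6% of all regions), of which 15 were in a control and 17 in a si-N6AMT1 library. A further 10 were in 2 libraries, 6 in 3 and 9 in all 4 (15.8%, against 16.7% of all regions). None was called in both control libraries and in no si-N6AMT1 library, where 2.62% of all regions were. The reverse held for 5 (8.77%, against 5.86%), which are those of NRG2, NRG3 and NRG4 given above, and no receptor gene had one. The median over regions of the mean fold was 6.57 for regions in 1 library (range 4.75 to 10.3) and 9.51 for those in all 4 (range 6.81 to 20.4). The former rested on pileups of 11 to 30 fragments, most of them below the medians of the lists, 17 to 19.

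The 9 shared regions allowed the strength of enrichment to be compared. Each library gave the value at its own summit of highest fold, which could differ in place within a region. The EGFR region in intron 27 (chr7:55270639-55272909) was the strongest of the family, with a fold of 26.3 and 23.3 in the controls against 15.1 and 16.8 in si-N6AMT1. The downstream intron 1 region (chr7:55163204-55163886) had a fold of 16.5 and 15.6 in the controls against 10.9 and 10.8 in si-N6AMT1. In both regions the groups did not overlap and control was higher. The intron 15 region (chr7:55234121-55235510) had a fold of 12.6 and 9.51 in the controls against 9.30 and 6.62 in si-N6AMT1, and its groups were also apart, by less than the difference within a group. The upstream intron 1 region (chr7:55135470-55135983) overlapped, at 9.96 and 9.07 in the controls against 8.97 and 10.2 in si-N6AMT1. The NRG3 intron 2 region (chr10:84220709-84221314) had a fold of 12.2 and 11.4 in the controls against 11.2 and 7.16 in si-N6AMT1. In all, 4 of the 9 regions were higher in each control library than in each si-N6AMT1 library, as were 24.3% of all shared regions. None of the 9 was higher in each si-N6AMT1 library, as were 16.9% of all shared regions.

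Pileup and background were then compared apart, at each library's own summit of highest fold. These summits lay up to 1409 bp apart in intron 27 and 895 bp apart in intron 15, but within 45 bp in the downstream intron 1 region. In introns 27 and 15 the libraries were therefore not all compared at the same place. In intron 27 the pileups were 64 and 67 fragments in the controls against 76 and 70 in si-N6AMT1, and the local background was 1.41 and 1.41 times the genome-wide level in the controls against 2.90 and 2.11 times in si-N6AMT1. In the downstream intron 1 region the pileups were 59 and 67 against 71 and 69, and the backgrounds 2.52 and 2.46 against 3.95 and 3.58 times the genome-wide level. In both regions pileup and background were thus higher in each si-N6AMT1 library, but this was common, since 30.0% of all shared regions were so for pileup and 41.8% for background over the genome-wide level. The si-N6AMT1 libraries were also the deeper ones. Divided by the genome-wide background of its library, the pileup was 61.1 and 49.1 in the controls against 53.7 and 45.8 in si-N6AMT1 for intron 27, and 56.3 and 49.1 against 50.2 and 45.2 for the downstream intron 1 region, so that on this scale the groups overlapped and the si-N6AMT1 mean was lower. The intron 15 region was different, with pileups of 36 and 32 against 36 and 22 and backgrounds of 1.84 and 1.81 against 2.11 and 1.62 times. Its pileups over the genome-wide background were 34.3 and 23.5 against 25.5 and 14.4. What set the background at these summits was not tested, and whether it came from the input or from the immunoprecipitated library is not given in the sources used here.

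**Figure D3:**
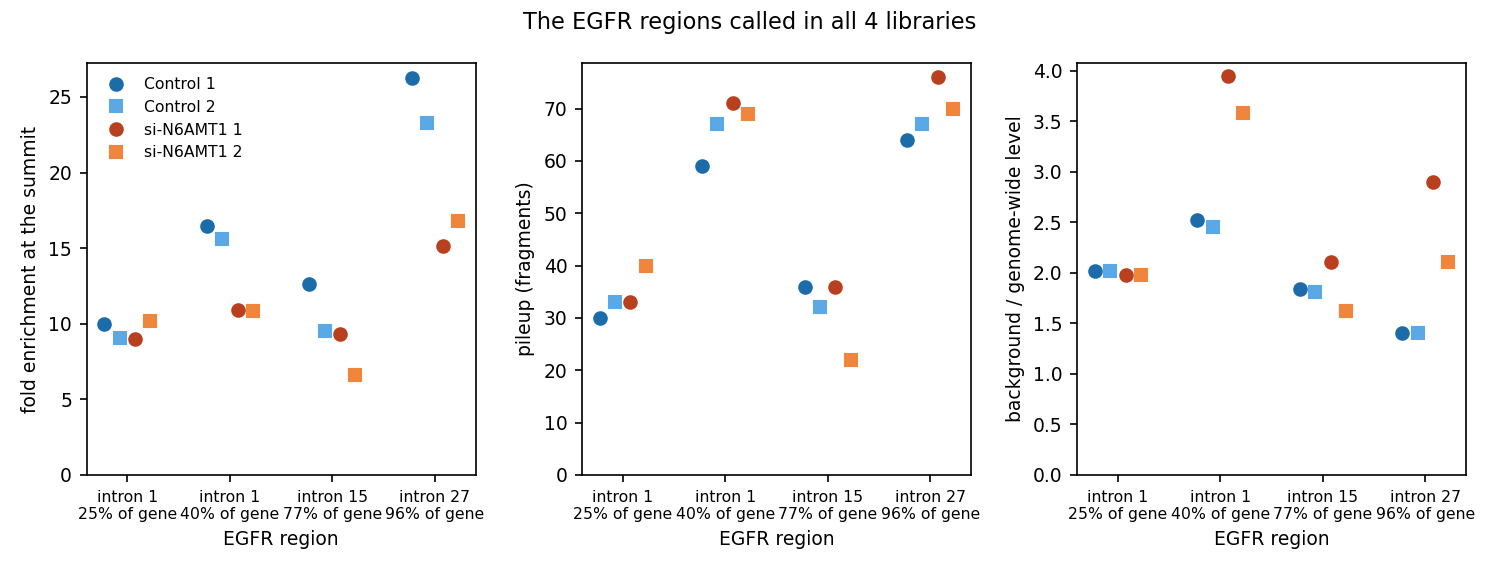
Fold enrichment, pileup in fragments and local background over the genome-wide level (y axes, from left to right) at the 4 EGFR regions called in all 4 libraries (x axis), with 1 point for each library. Each point is at the library's own summit, and these summits lay up to 1409 bp apart in intron 27 and 895 bp apart in intron 15. In the downstream intron 1 region and the intron 27 region the control points are highest for fold and the si-N6AMT1 points are highest for pileup, which is not corrected for depth, and for background.

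On the log2 scale, limma fitted to the fold in the 12127 nuclear regions called in all 4 libraries gave a si-N6AMT1 minus control difference of -0.63 ± 0.24 (SE, 2 libraries a group) for EGFR intron 27, with a Benjamini-Hochberg adjusted p of 0.219. The difference was -0.56 ± 0.25 for the downstream intron 1 region (limma adjusted p = 0.331), -0.48 ± 0.26 for intron 15 (limma adjusted p = 0.455) and -0.40 ± 0.26 for NRG3 intron 2 (limma adjusted p = 0.566). The 5 other regions lay between -0.09 and 0.08. Leaving out 1 library moved the intron 15 value to between -0.73 (without the first si-N6AMT1 library) and -0.24 (without the second), with -0.28 without the first control library, and the NRG3 intron 2 value to between -0.72 and -0.08 in the same order. The values of EGFR intron 27 and the downstream intron 1 region stayed between -0.72 and -0.52. None of the 9 passed 0.05, and 0.247% of all shared regions did. Only EGFR intron 27 and the downstream intron 1 region had an unadjusted limma p under 0.05, as did 1455 of the 12127. The median difference over all shared regions was -0.05, with 56.0% of them lower in si-N6AMT1, and 7 of the 9 were lower. When pileup, centred in each library, took the place of fold, the differences were -0.00 ± 0.16 at both EGFR intron 27 and the downstream intron 1 region, -0.43 ± 0.25 at intron 15 and -0.05 ± 0.25 at NRG3 intron 2. Over 10 alternatives the adjusted p of EGFR intron 27 ranged from 0.075 to 0.998.

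**Figure D4:**
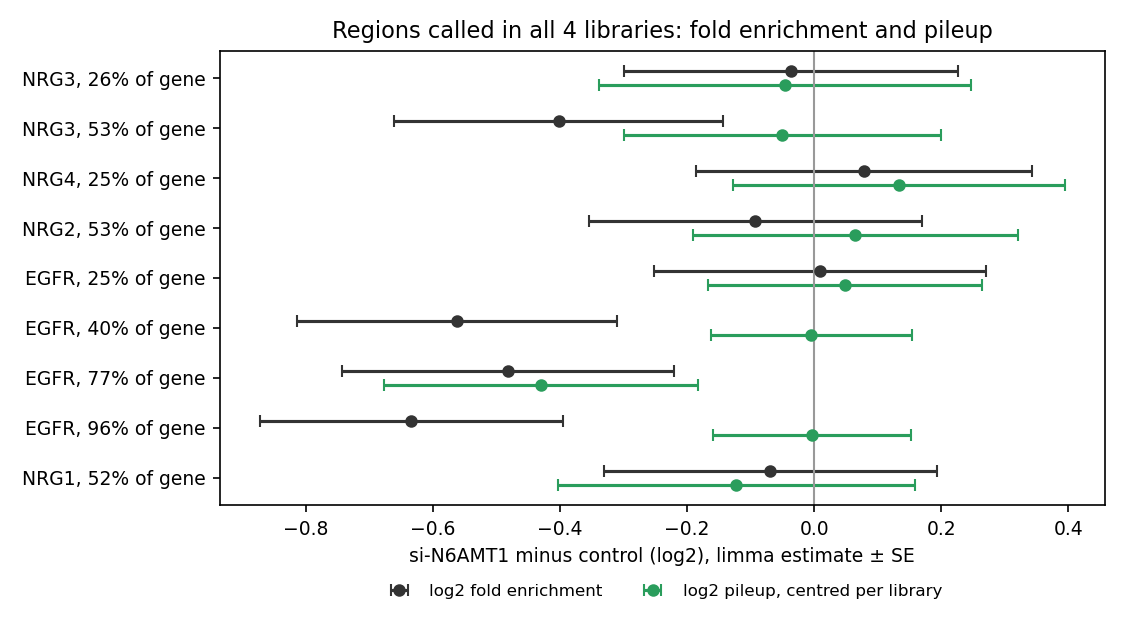
Difference between si-N6AMT1 and control on the log2 scale (x axis; limma estimate ± SE, 2 libraries a group) at the 9 shared regions (y axis), for fold enrichment in dark grey and for pileup centred in each library in green. At 2 EGFR regions the estimate for fold is -0.56 and -0.63 and that for pileup is at 0, while at EGFR intron 15 both are below 0.

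EGFR stood apart from the other genes in local background. The median background at its peaks was 1.98 and 1.81 times the genome-wide level in the controls against 2.11 and 2.11 times in si-N6AMT1. At peaks of the 5 other genes with peaks the medians were 1.00 to 1.31 times. The 1 Mb on either side of EGFR gave 1.76, 1.84, 1.83 and 1.83 times, the surroundings of the 7 other genes 1.00 to 1.44 times, and all peaks of a list 1.18 to 1.23 times. The raised level was present in every library of both groups. What set it was not tested.

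**Figure D5:**
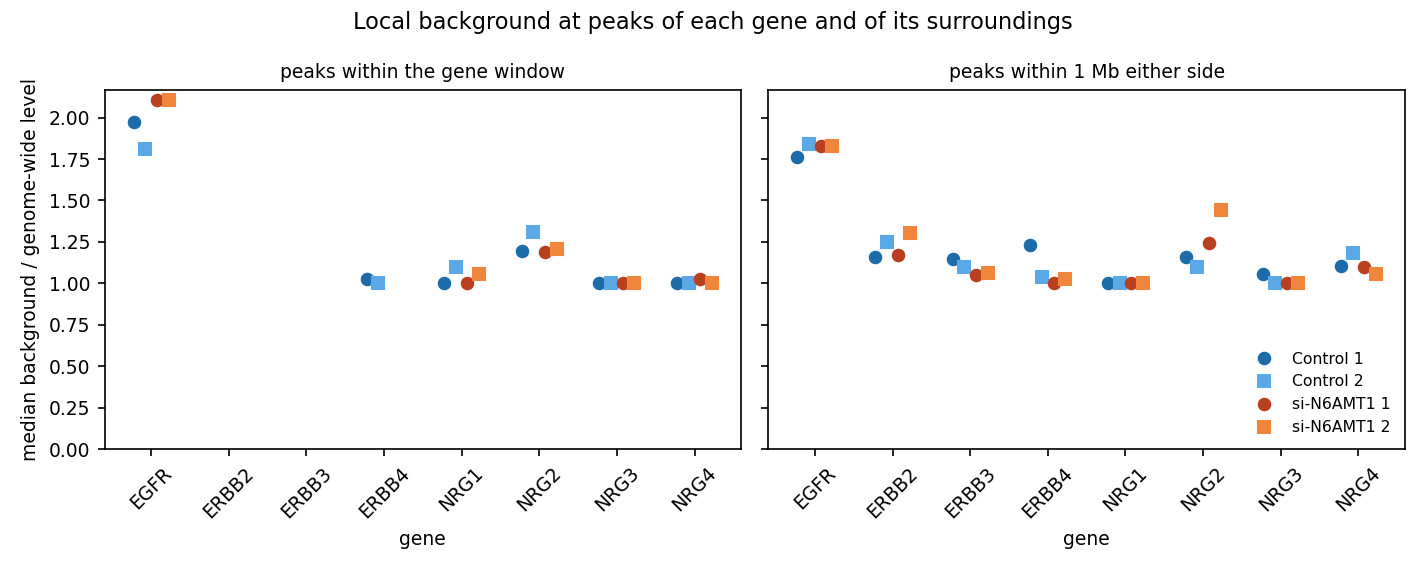
Median local background over the genome-wide level (y axis) at the peaks in each gene window (left) and at the peaks within 1 Mb on either side (right) for the 8 genes (x axis), with 1 point for each library. EGFR lies at 1.76 to 2.11 in both panels and all other points are at or below 1.44. Genes without a peak in a library have no point.

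The genes that act with these receptors were taken from a list of 25 (7 further ligands, 10 adaptors and 8 restraints). Of these, 16 had a peak in at least 1 library, where 54.2% of protein-coding genes had one. They held 12 and 16 peaks in the controls against 16 and 18 in si-N6AMT1. The EGF-family ligands had few. EGF, TGFA and BTC, all ligands of EGFR, had 1 peak each, in the second si-N6AMT1 library, HBEGF had 2 in the first, and AREG, EREG and EPGN had none. The ligands together thus held 0 and 0 peaks in the controls against 2 and 3 in si-N6AMT1. These formed 5 regions, each called in 1 library, and the whole si-N6AMT1 lists held 1.25 times as many peaks as the control lists. The adaptors, which carry the signal from the phosphorylated receptor, held 5 and 10 peaks in the controls against 6 and 6 in si-N6AMT1, with a region in all 4 libraries at PIK3R3, a regulatory subunit of PI3 kinase. GRB7, an adaptor gene close to ERBB2 on chromosome 17, had none, as did GAB1. The restraints held 7 and 6 peaks in the controls against 8 and 9 in si-N6AMT1. CBLB, a ubiquitin ligase that marks receptors for breakdown, had 7 regions, of which 1 was in all 4 libraries. PTPN12, a tyrosine phosphatase, had the only one of the 39 regions of the list called in both control libraries and in no si-N6AMT1 library (chr7:77184405-77184883, fold 5.84 and 5.56). The reverse held at LRIG1, a membrane protein that limits receptor level (chr3:66544099-66544619, fold 7.87 and 8.70), and at CBLB (chr3:105490670-105491055, fold 4.04 and 5.45). ERRFI1, LRIG3, RNF41 and SPRY2 had no peak. As shares of the 39 regions, 5.13% were called in all 4 libraries, 2.56% in both control libraries alone and 5.13% in both si-N6AMT1 libraries alone. Over all regions the shares were 16.7%, 2.62% and 5.86%.

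Runs of A, the base that 6mA modifies, were counted in the 100 bp at each summit. Of the peaks of the 8 genes, 60.9% and 37.5% in the controls against 39.3% and 37.5% in si-N6AMT1 held at least 6 A, or at least 6 T, in a row. In the whole lists the shares were 45.7%, 46.9%, 49.0% and 49.6%. The first control library thus lay above its list and the 3 others below, and with 23 to 32 peaks a library the means of 43.8% and 47.8% differed by less than the SD of 11.4 percentage points between libraries. Of the 9 shared regions 2 held such a run, against 37.2% of all shared regions, and their median GC content was 46%, against 38%.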

How the data were processed

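6mA-IP-seq peak lists of 4 immunoprecipitated libraries were analysed, 2 from Control and 2 from si-N6AMT1 cells, grouped by sample title. Per the study's methods, the authors filtered reads with Trimmomatic and mapped them with Bowtie2 2.3.5 to hg19. Duplicates were taken out with SAMtools 1.9, and MACS2 was run on each library on its own at p below 1e-05. The study then kept the peaks that its replicates shared, whereas the full list of each library was used here. The control track of each call is not given in the sources used here. The deposited lists give a score (10 times the −log10 p), a fold enrichment, which is a ratio of pileup to local background with 1 added to each, and the −log10 p and −log10 q of each summit. Removal of duplicates caps the pileup of identical fragments, and alignment over repeats depends on how the aligner places reads with several matches.

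From fold and −log10 p the whole-number pileup and the background of each summit were recovered (within 0.02) for all but 5 mitochondrial peaks a library. Overlapping peaks (1 bp) were merged into regions. Genes were from GENCODE 44 on GRCh37, and summits up to 1000 bp from a transcription start counted as promoter, then as exon or intron. Counts were compared with an exact two-sided permutation test, and log2 fold over shared regions with limma 3.58.1 (R 4.3.3) with a mean trend. The shared-region fit replaces the signal-track comparison of the study. Scripts ran in Python 3.11.15 (numpy 2.4.6, pandas 2.3.3, pysam 0.24.0, scipy 1.17.1) and were tested on simulated data. The genes named are all 8 members and a list of 25 pathway genes. The sequence of 1 region is not reported here. Members and lists were chosen with earlier results of these data known. Other settings tried were lists of equal length, a minimum −log10 q of 5, other windows, overlaps and scales, a replicate block, and each library left out in turn. Intervals and read totals were not used here, and pileups bound the precision.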

Additional observations from a re-analysis of the deposited data

How the results depend on the processing

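Of 247 alternative values, 215 were counted as unchanged. Differences between groups had to keep their direction and side of the threshold, whatever their size. Numbers of regions had to stay within 1.5 times. With equal numbers of peaks the difference at the 8 genes fell from 6.5 peaks to 1 peak and still counted as unchanged. Equal numbers of peaks gave a density ratio of 0.576, 1 region called in control alone and 3 in si-N6AMT1 alone. Leaving out 1 library gave 1 to 9 regions in control alone (9 without the first control library) and 7 to 14 in si-N6AMT1 alone (14 without its first library), since 1 library then stands for a group. Windows of 200 bp gave A runs in 58.7% of member peaks (63.4% of all peaks), and runs of at least 8 A gave 17.2% (25.5%). The number of shared regions passing limma was 63 with centred folds, 353 with the plain ratio and 0 with centred pileup (661 at an unadjusted p under 0.05), and 0 to 1 when any library was left out. In each, 0 of the 9 member regions passed. The cause was not tested. Reversed log2 differences, none of which passed the threshold, were 0.0081 at NRG3 intron 1 with centred folds, -0.057 at NRG4 and -0.062 at the upstream EGFR intron 1 region with the plain ratio, and 0.065 at NRG2 with centred pileup. Leaving out 1 library gave -0.37 to 0.30 at NRG3 intron 1, -0.15 to 0.31 at NRG4, -0.36 to 0.18 at NRG2, -0.084 to 0.10 at the upstream EGFR region and -0.51 to 0.38 at NRG1.

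The libraries share replicate numbers, but the same-numbered ones did not deviate together in log2 fold (correlation 0.014 over 12127 regions). This shows no pairing in fold, and it cannot tell whether same-numbered libraries were made together. A replicate block left the difference of 6.5 peaks at the 8 genes, with an exact sign-flip p of 0.5, the smallest that 2 pairs allow, and gave 111 shared regions past limma's threshold, with 0 of the 9 member regions among them. With 2 libraries a group and median pileups of 17 to 19 fragments, a region missing from a list was not called at this depth, and no absence of 6mA follows from it.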
